A study of Mus musculus with 2 samples.

Results

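The cardiac myosin heavy chain genes Myh6 and Myh7 gave their name to a window on mouse chromosome 14, from 55520000 to 55660000 (mm9), that held 6 of the 8849 TBX5 peaks called in adult ventricle chromatin. A peak belonged to the window when its summit, the position of the highest TBX5 pileup, lay inside it. The window was chosen by measured values, since it holds the pair of peaks with the most control reads in the list, so the signal and control values there are given as a description and nothing was tested on them. The study immunoprecipitated formaldehyde-fixed ventricle chromatin from wild-type C57BL/6 mice of 15 weeks, with an antibody against TBX5 or, as control, with rabbit IgG, and sequenced the DNA (ChIP-seq). All mice were untreated. The design text names 2 biological replicates per antibody, but the list used here is 1 merged list of TBX5 peaks. No value therefore has a spread between replicates, and all intervals below cover counting error only.

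Myosin heavy chain is the motor of the thick filament, which pulls on actin to shorten the sarcomere. Myh6 encodes the alpha chain, the faster motor and the predominant one in the adult mouse ventricle, and Myh7 encodes the beta chain, a slower and more economical motor that the mouse heart uses before birth and again under load. The genes stand in tandem, and each carries a microRNA gene in an intron, Mir208a in Myh6 and Mir208b in Myh7. The long noncoding RNA Mhrt is transcribed from the same locus, antisense to Myh7. TBX5 is a T-box transcription factor of the heart that binds DNA near genes of the contractile and conduction programmes.

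In the RefSeq gene table of GRCm38.p6, used for gene order only, Efs, Il25 and Cmtm5 come before Myh6, Mir208a and the noncoding Gm52092, followed by Mhrt, Myh7, the noncoding Gm31251 and Mir208b, and then by Ngdn, Gm10364 and Zfhx2. The peaks are on mm9 and no mm9 gene annotation was used here. The assignment of the window to Myh6 and Myh7 rests on the rule, and no single peak was placed in a promoter, exon or intron of either gene.

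The bases before the start of each myosin gene are shown because a gene's start is where its promoter lies, with capitals marking each match to one of the 9 motifs searched for heart transcription factors. They come from RefSeq on GRCm38.p6, and their coordinates cannot be set beside the mm9 peaks. Myh7 has 2 starts in the table, 77 bases apart, and the sequence before the upstream one is shown.
Myh6, chr14:54966608-54966857, minus strand: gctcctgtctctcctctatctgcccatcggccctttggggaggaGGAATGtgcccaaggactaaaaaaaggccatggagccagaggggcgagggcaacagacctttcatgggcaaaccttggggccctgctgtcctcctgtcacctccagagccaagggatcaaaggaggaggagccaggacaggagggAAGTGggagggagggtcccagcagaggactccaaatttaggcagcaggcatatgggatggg
Myh7, chr14:54994627-54994876, minus strand: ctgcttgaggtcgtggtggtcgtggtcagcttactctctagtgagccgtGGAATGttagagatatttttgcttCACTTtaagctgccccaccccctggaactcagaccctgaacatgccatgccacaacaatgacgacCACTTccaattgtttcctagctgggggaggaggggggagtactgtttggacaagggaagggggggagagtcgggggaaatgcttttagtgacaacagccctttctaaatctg

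Neither the T-box half-site AGGTGTGA nor its core GGTGTGA, which lies within it, occurred on either strand in the 250 bases before Myh6 or before either start of Myh7. Of 32851 promoters in the table, 1.12% held the half-site and 3.33% the core in the same stretch. The absence says only that these letters are not in these windows. The sites AGATAA and TGATAA of GATA factors, the E-box CAGCTG, the MEF2 site and the CArG box were not found either, and occurred in 9.99%, 7.94%, 13%, 2.92% and 1.47% of promoters. The MCAT element CATTCC, the recognition sequence of TEAD factors, matched once in the Myh6 sequence, starting 206 bases before the start, and once in the Myh7 sequence, 201 bases before the start, both on the opposite strand, against 12.6% of promoters. The NKX2-5 site AAGTG matched once in Myh6 and 2 times in the Myh7 sequence shown, and 40.7% of promoters held it. The 250 bases before the other start of Myh7 held no MCAT match and 1 match to AAGTG.

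The microRNAs of the locus belong to 1 seed family, shown with the seed (bases 2 to 8) in capitals. Their 3p strands differ at 3 of 22 positions (10, 16 and 18, counted from the 5′ end), all outside the seed. No other of the 1738 mature sequences in the RefSeq table shares that seed.
miR-208a-3p: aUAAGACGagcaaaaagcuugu
miR-208b-3p: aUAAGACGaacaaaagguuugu

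The 6 TBX5 sites of the window, called A to F here in order of position, lay within 45.6 kb. Site A ran from 55578950 to 55579217, site B from 55585459 to 55585936 and site C from 55586426 to 55587052. Site D ran from 55607449 to 55607659, site E from 55622869 to 55623702 and site F from 55624419 to 55624596. The nearest called peaks outside were 212 kb before site A and 342 kb after site F, so the sites formed a compact set in a sparse stretch. A count of 6 in such a length was not rare, since 7.90% of all peaks opened a stretch of 140 kb with 6 or more.

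For each site the TBX5 fragments over the summit and the control level there were computed from the deposited fold and p-value and matched the deposited −log10 p to within 0.00014. The caller scales TBX5 by 0.787 to the depth of the control, and the fold is the scaled TBX5 pileup over the control level, with 1 added to each. As control level the caller takes whichever is largest: the pileup of control fragments over the summit, their mean over the surrounding 1 kb or 10 kb, or the genome-wide mean, here 1.18 per position. That the control was the IgG sample is not stated in the labels, so it is called the control.

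Sites B and C carried a tall signal in both TBX5 and the control. Site B held 147 TBX5 fragments (95% Poisson interval 124 to 173), the control level was 59.0 (44.9 to 76.1), and its deposited fold was 1.94. Site C held 146 TBX5 fragments (123 to 172), the control level was 60.0 (45.8 to 77.2), and its fold was 1.90. In TBX5 fragments the pair ranked 83 and 88 of 8849, whereas in fold it ranked 8846 and 8847. Scaled to the control, TBX5 stood 98.4 times above the genome background at site B and 97.7 times at site C, and the control itself stood 50.2 and 51.0 times above it.

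The control at these sites was set apart from the whole list. After them came a level of 24.0 on chromosome 19 (54018537 to 54018728), so that site B was 2.46 times and site C 2.50 times the next. The following levels were 23.0 at 1 peak, 22.0 at 4 and 21.0 at 3, with no comparable gap. A control level of 20 or more was reached by 2 of the 6 sites, against 0.226% of the list. The other 18 such peaks had folds of 1.88 to 6.86 with a median of 2.45.

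**Figure D1:**
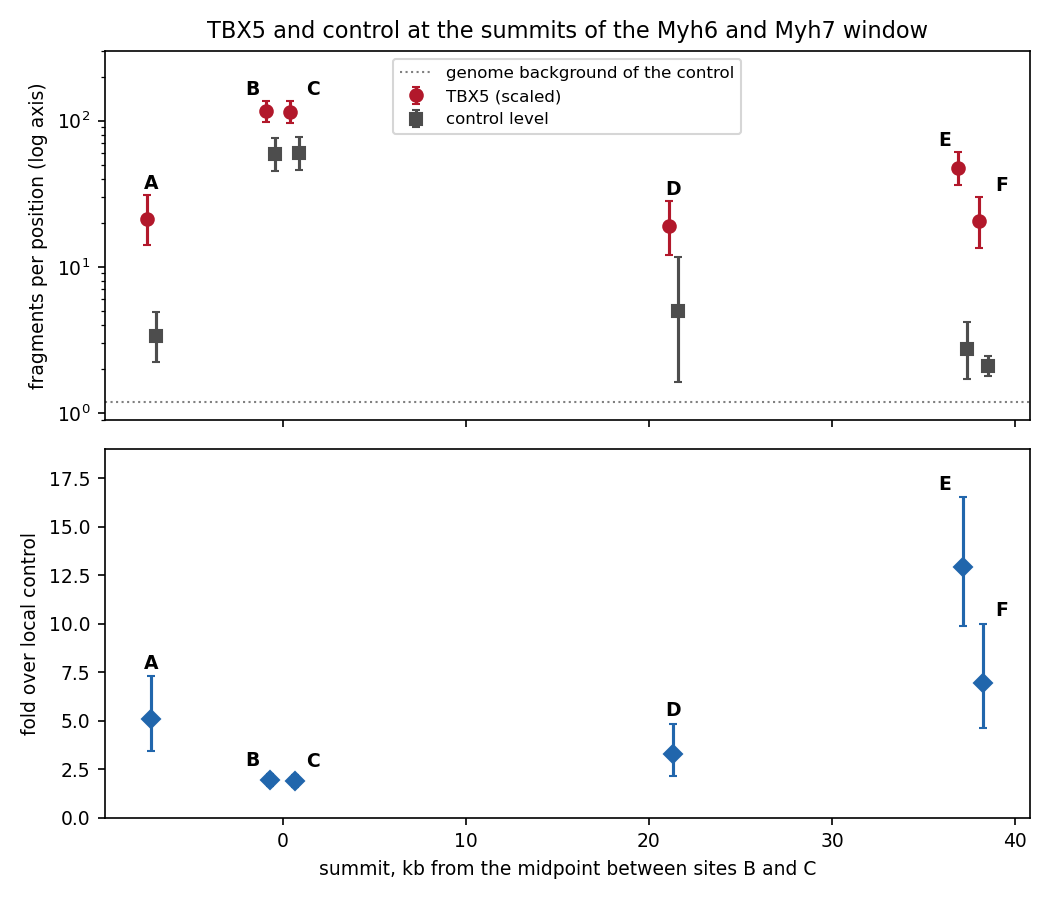
Scaled TBX5 fragments and control level (top, log axis) and fold over the control (bottom) at the summits of sites A to F, by distance in kb from the midpoint between sites B and C. Bars are 95% Poisson intervals, in the lower panel of the TBX5 fragments only, and sites B and C have the most fragments and the lowest folds.

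Site E had the highest fold of the window and a low control. Here 60 TBX5 fragments (45.8 to 77.2) stood over 2.75 of the control (1.72 to 4.16), and the fold was 12.9 (9.87 to 16.5 from the TBX5 counting error). Its score of 366, which is 10 times the −log10 q with decimals dropped, was above that of 91.2% of peaks. At 834 bp it was also the widest peak of chromosome 14 and the 15th widest of the list. This was the 1 site of 6 whose fold was at least 10, against 13.7% of all peaks. The 642 other peaks with 54 to 66 fragments had a median fold of 7.38 and a median width of 292 bp, and none was as wide as site E.

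Site F adjoined site E, 716 bp beyond its end. Here 26 TBX5 fragments (17.0 to 38.1) stood over 2.1 of the control, and the fold was 6.92 (4.63 to 9.99). Its fold lay above 68.4% of the list on fewer fragments than the list median of 32.0. The fold intervals of sites E and F overlapped slightly.

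Sites A and D were ordinary or weak. Site A held 27 fragments (17.8 to 39.3) over 3.38 of the control, and its fold of 5.08 (3.43 to 7.29) was near the list median of 5.52. Site D held 24 fragments (15.4 to 35.7) over 5.00 of the control, with a fold of 3.31 (2.18 to 4.85), and had the lowest score of the window, 26. A second pair of values, 22 fragments over 4.53, also lies within the tolerance for site D. Of the 6 sites, A, D and F had overlapping TBX5 fragment intervals, E lay above them, and B and C lay above E.

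The high control did not extend to site A. Per kb, the control level corresponded to 472 reads at site B and 480 at site C, against 27.0 at site A, 40 at D, 22.0 at E, 16.8 at F and 9.40 for the genome background. These are levels restated per kb, and the stretch taken to have set them differed. It was taken as the surrounding 1 kb at sites A and E and was 10 kb at F. The levels at A and E can also come from the 10 kb average. Site A lay 6.50 kb from site B between summits. Its level of 3.38 was the highest of all its windows, so the 10 kb around its summit held at most 270 control reads, and that window ended 1.5 kb short of the summit of site B. On the other side the nearest called site was D, 20.7 kb from the summit of C. The 10 kb around the summit of D held at most 400 control reads. How far the high control reached between site C and that stretch was not measured. Sites B and C lay 1.35 kb apart between summits. A whole-number level such as 59.0 can come from the summit or from the 1 kb or 10 kb average. The level restated per kb is the same in each case. If the summit set it, the surrounding 1 kb held at most 472 control reads at site B and 480 at site C. Intervals that include the counting error of the control take the level as a count over the summit at sites B, C and D. At sites A and E they take it as a count over 1 kb.

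Measured as a difference in place of a ratio, sites B, C and E had overlapping intervals. Scaled TBX5 minus control was 56.6 at site B (95% interval 31.8 to 81.3), 54.8 at site C (30 to 79.5) and 44.4 at site E (33.2 to 58.0), with the counting errors of TBX5 and control combined. The overlap does not show that the sites were equally bound. At sites A, D and F the difference was 17.9 (10.5 to 27.6), 13.9 (4.37 to 23.7) and 18.4 (11.3 to 27.9). By this measure site B ranked 600, site C 638 and site E 993 of the list. As a ratio without the added 1, TBX5 was 1.96 times the control at site B (exact 95% interval 1.44 to 2.70, both counting errors), 1.91 times at site C (1.41 to 2.63) and 17.2 times at site E (10.4 to 29.4). The low ratios at B and C go with the control reads that chose them and are a description.

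**Figure D2:**
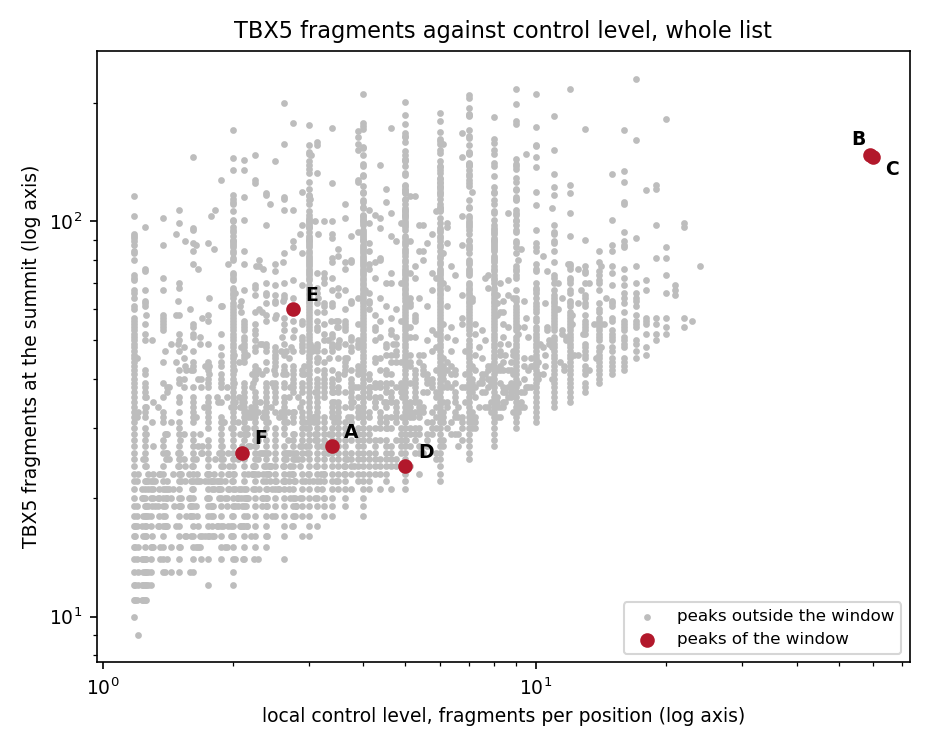
TBX5 fragments at the summit against the local control level for every peak of the list, both on log axes, with the 6 sites of the window in red. Sites B and C lie alone at the right, at control levels of 59.0 and 60.0, while A, D, E and F lie among the other peaks.

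Other peaks with as many TBX5 fragments had far lower control. The 88 peaks outside the window with 132 to 161 fragments had control levels of 1.62 to 17.0 (median 6.00) and folds of 6.26 to 44.1 (median 17.3). The lowest of these folds was on chromosome 2 (140220767 to 140221395), with 134 fragments over 16.0. The highest was on chromosome 5 from 113361988 to 113362539, where 146 fragments, the same number as at site C, stood over 1.62. The widths of sites B (478 bp) and C (627 bp) lay within the range of these peaks, 256 to 898 bp. The scores of sites B and C, 68 and 61, lay below the lowest of these scores, 446. Sites B and C were chosen by having the most control, so every matched peak had to have less. The differences in control, fold and score are therefore a description.

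Sites B and C had folds near the lower end of the list. A fold under 3 was found at 2 of the 6 sites, against 6.29% of peaks, and a fold under 2 at the same sites, against 0.0904%. The control reads that chose these sites are in the denominator of the fold, so these shares are a description. The 6 other peaks under 2 held 46 to 57 fragments over control levels of 18.0 to 23.0, and their −log10 q reached at most 1.87. At sites B and C the −log10 q was 6.86 and 6.2. Over a control level of 60.0 a site needed at least 117 TBX5 fragments, a fold of 1.53, to reach the weakest −log10 p of the list, 4.22, against 17 fragments over the median level of 3.50. Under such a control, a site of fewer fragments would not have entered the list.

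**Figure D3:**
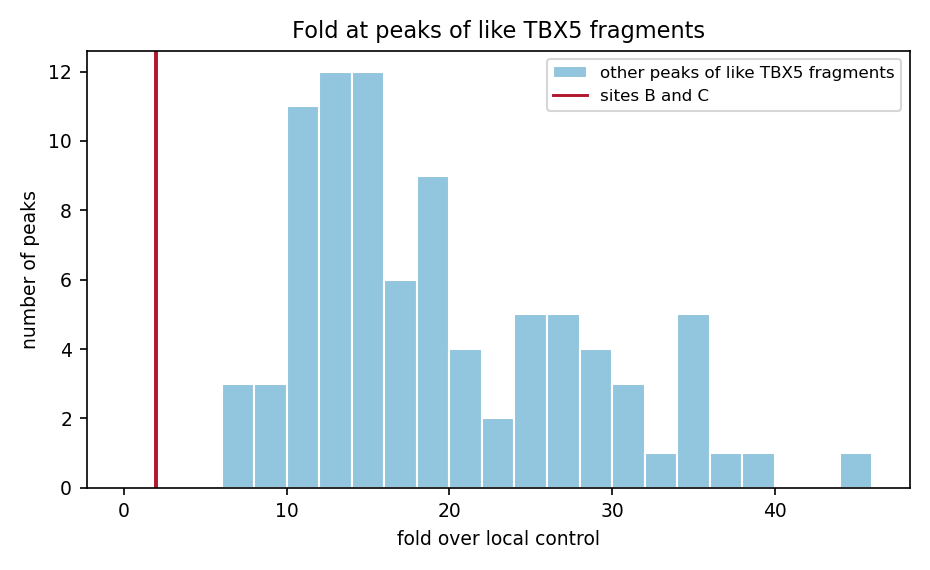
Number of peaks by fold over the control for the 88 peaks outside the window with 132 to 161 TBX5 fragments, with vertical lines at sites B and C. The peaks run from 6.26 to 44.1, and both lines lie below them at 1.94 and 1.90.

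Both pairs of adjoining sites, B with C and E with F, were among 498 pairs in the list with less than 1 kb between them. The gap between B and C was 489 bp. The members of this pair differed 1.01-fold in TBX5 fragments and 1.02-fold in control, against list medians of 1.53-fold and 1.4-fold. The lower control level of the other pairs had a median of 3.12, and counting error widens a ratio of low counts more. The medians were not matched for counts, so they do not show that sites B and C were unusually alike. Sites E and F differed 2.31-fold in fragments and 1.31-fold in control. In the other pairs the lower of both control levels was at most 14.1, and B with C was the only pair of the 498 with both folds under 2. Sites B and C were chosen by having the most control, so no other pair could exceed them in it. That control is also in the denominator of the fold, so both statements are a description. At sites B and C the summits lay at 32.6% and 85.8% of the peak width, counted from the lower coordinate. Whether 2 peaks so close are parts of 1 enriched region was not tested.

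**Figure D4:**
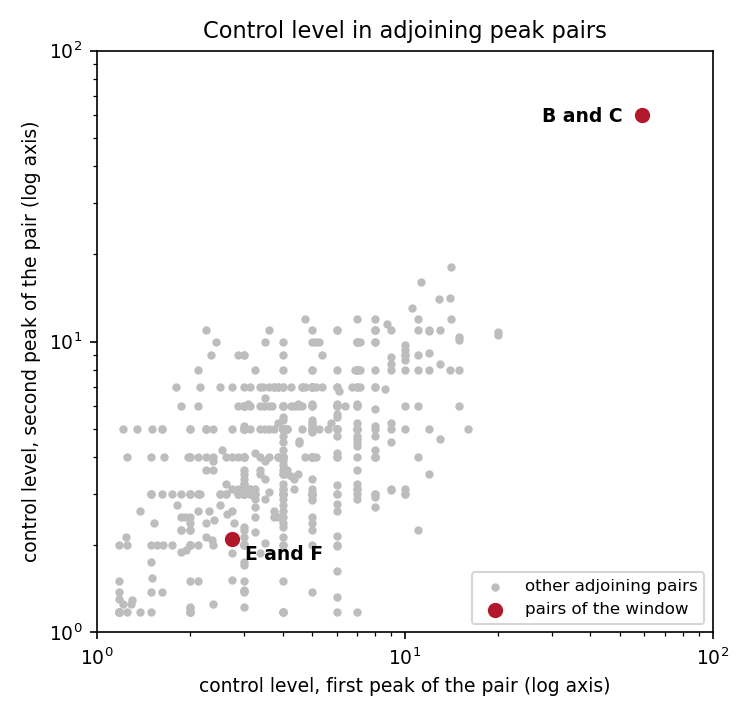
Control level of the first and second peak of each of the 498 adjoining pairs, both on log axes, with the 2 pairs of the window in red. The pair of B and C, chosen by having the most control, lies at 59.0 and 60.0, so every other pair had to lie lower. The pair of E and F lies at 2.75 and 2.1.

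The 2 nearest peaks on each side of the window had folds of 3.56 to 5.32. Before it lay a peak from 55367155 to 55367449, 153 kb outside the edge, with 42 fragments over a control level of 6.00 and a fold of 4.86, and a peak from 55196475 to 55196638 with 53 fragments over 11 and a fold of 3.56. After it lay a peak from 55967075 to 55967279, 307 kb outside, with 14 fragments over 1.29 and a fold of 5.25, and a peak from 56086034 to 56086167 with 19 fragments over 2.00 and a fold of 5.32. Within 1 Mb of the window on both sides there were 6 peaks, with a median control level of 4 and a highest of 11. Their folds ran from 3.56 to 13.9, the highest above every fold of the window, and their TBX5 fragments from 14 to 158. On the rest of chromosome 14 the highest control level of 320 peaks was 16.0. What raised the control at sites B and C was not tested.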

How the data were processed

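TBX5 peaks came from 1 deposited list of adult mouse ventricle, in the 10 columns of a MACS2 narrowPeak file. The build is mm9, and the tools named are MACS2 2.1.1.20160309.0 as peak caller beside Bowtie2 2.2.6.2 and FastQC 0.10.0, per the submitters' processing notes. Not given in the sources used here are the settings of the caller, the control it was given and how replicates were merged. As deposited, each peak has a fold (ratio) over the local control, −log10 p, −log10 q, a score and the summit. Coordinates are counted from 1.

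TBX5 fragments T and the control level c were solved from fold = (0.787 T + 1) / (c + 1) and the Poisson tail of the whole part of 0.787 T. All 8849 peaks solved within 0.00014 of the deposited −log10 p (tolerance 0.005). For 258 peaks, site D among them, a second solution lay within the tolerance, and the closer was taken. Control levels fell on steps set by a fragment length of 125 bp. The recovery was tested on simulated data of 5868 and 5846 peaks, where 100% came back right. These data were made with the same formulas and without levels from 10 kb averages. The test therefore covers the solving only, and not whether the caller works this way.

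Intervals are 95% (exact Poisson; Clopper-Pearson for a ratio of both counts; for a difference, the distances to both exact limits combined in quadrature). Whether PCR copies were removed is not given in the sources used here. Any that remained would count as separate fragments, so these intervals are minimal. Peaks of like TBX5 fragments lay within 10% of sites B and C. The members and measures were chosen with earlier results of these data known. The rule for what is named covered every peak of the window, the neighbouring genes, the 2 nearest peaks on each side, the peaks with the most control, and the matched peaks of lowest and highest fold. Of the peaks with the most control after sites B and C, 1 is located and the others are given by level only. Counts of sarcomere genes needed an mm9 annotation and were not run. Of the genes and microRNAs of the locus, Myh6, Myh7, Mir208a and Mir208b were matched by symbol in the RefSeq sequence tables. Computations ran in Python 3.11.15 (scipy 1.17.1, pandas 2.3.3, numpy 2.4.6), and plots in matplotlib 3.10.9.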

Additional observations from a re-analysis of the deposited data

How the results depend on the processing

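Of 25 alternatives, 13 left the value within its limits and 12 moved it. The limits were a factor of 1.5 for counts and ranks, the 95% interval of a fold or median, and 1 SD over peaks for the control level of the flanks. The higher-scoring part of the list kept 2 of the 6 sites, E and F, and the highest control level of the window then ranked 2908. Unscaled TBX5 fragments gave a fold of 2.47 at site B and 2.41 at site C. The rank of site B was 83 by TBX5 fragments, 600 by scaled TBX5 minus control, 8846 by fold and 5141 by score, and that of site C was 88, 638, 8847 and 5627. Peaks matched within 5% had a median fold of 18.8, and a gap under 500 bp left 321 adjoining pairs. Each of these alternatives changes the scaling, the measure or the set of peaks, and why the values moved was not tested. No paired analysis was possible because 1 merged list holds no replicates, and for the same reason no replicate could be left out. Where the control is high, weaker sites cannot enter the list, and sites below the caller's threshold were not analysed here.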
